A study of Rattus norvegicus with 12 samples.

Results

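The data described here are the 4 arrays of uncut calvaria, the flat bone of the skull roof, from a series of 12 single-colour arrays of rat bone. The 4 were chosen by their label alone, and no measured value entered the choice. The whole series asked what cutting bone with an Er:YAG laser or a rotating bur does to gene expression 24 h after surgery. The 4 control samples had their periosteum (a fibrous sheet on the bone surface) taken off and no ablation. In the 4 bur and 4 laser samples a rectangular defect was also made. All were bone of rats 10 weeks old. The labels give no strain, sex or genotype. Nor do they tie the 4 samples of a group to different animals, so p-values measure only the spread between these samples, which may be technical.

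Calvarial bone is built by osteoblasts, which lay down type I collagen and mineral-binding proteins, is kept by osteocytes enclosed in the mineral, and is resorbed by osteoclasts. Between its outer and inner plates lie marrow spaces where red cells, granulocytes and lymphocytes form, with vessels running through. Its outer face carries muscle and fascia and its inner face lies on the meninges over the brain. In a bulk sample, fewer cells of a type and less RNA per cell cannot be told apart.

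Signal is given as log2 of the scanner's processed intensity after quantile normalization over the 12 arrays, with one probe per gene. Ranks are ranks of probe brightness, which depends on the probe as well as on the transcript, so they do not order transcript amounts. A gene counted as detected on an array when the scanner called its probe well above background there. The median signal of all spots was 20.6, 16.5, 34.7 and 43.2 intensity units on control 1 to control 4, so controls 3 and 4 were brighter before normalization. Between 57.2% and 64.4% of spots were well above background, no spot was saturated, and the 6 pairs of control arrays correlated at 0.947 to 0.972 over probes, as a description.

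Of 14542 genes kept, 11786 were detected on all 4 control arrays, 2110 on 1 to 3 of them and 646 on none. The Y-linked genes Kdm5d, Ddx3y and Eif2s3y were detected on all 4, and Xist was not well above background on any of them. The brightest probe of all, at a mean of 17.37, belonged to the ribosomal protein gene Rpl41, and 44 of the 100 brightest genes encode ribosomal proteins. Next to them stood the alpha globin Hba-a1 (17.13, 16.94, 16.92 and 16.98 on control 1 to control 4), the neutrophil defensins RatNP-3b and Np4, 18S ribosomal RNA (Rn18s), the beta globin Hbb-b1 and Ahsp, which stabilizes free alpha globin. Globins and defensins are families of near-identical copies, so their probes may read more than one member. The bone collagen Col1a1 ranked 22nd and osteocalcin, Bglap, 34th. The plot of signal against rank shows where the marker genes of each tissue fell and how far apart the 4 arrays put them.

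**Figure D1:**
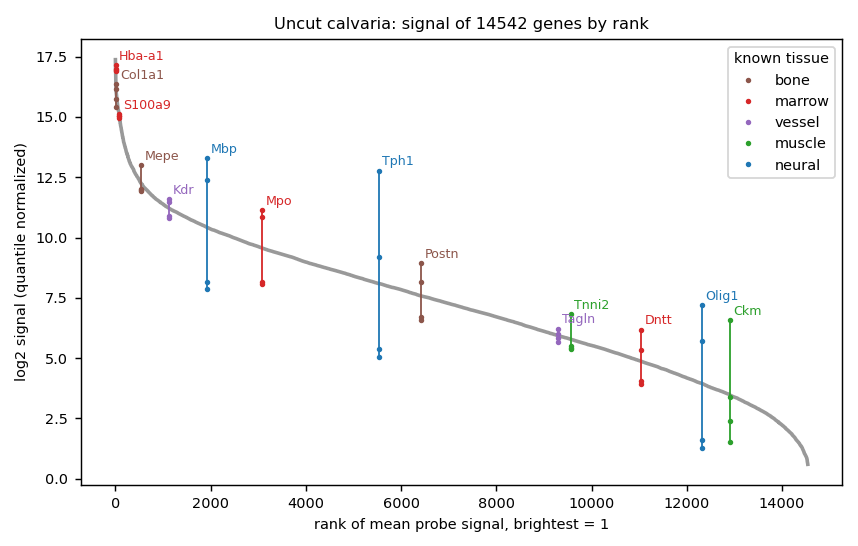
Mean log2 signal over the 4 uncut arrays against rank for 14542 genes (grey line), with the 4 single arrays of selected genes as points joined by a vertical line and coloured by known tissue. Hba-a1, Col1a1 and S100a9 sit at the bright end with short lines, whereas Mbp spans 7.87 to 13.29 and Tph1 spans 5.04 to 12.76.

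Bone matrix genes were among the brightest, and most read lowest on control 3. All 16 genes of the osteoblast and matrix list were kept, 15 were detected on 4 of 4 arrays and 6 stood in the brightest 10% of genes. Col1a1, the main chain of bone collagen, read 16.35, 16.17, 15.43 and 15.75. Bglap, made by mature osteoblasts, read 16.15, 16.11, 14.77 and 15.76. Sparc, which binds collagen and mineral, read 16.16, 16.90, 14.17 and 15.58. For each of these 3 genes control 3 was the lowest array. The median SD over the arrays was 0.54 for the list, against 0.29 for all 11786 genes on 4 of 4. Omd, a small proteoglycan of mineralized matrix, had the largest SD of the list at 1.41 and read 10.45, 11.10, 8.09 and 8.77. Its second probe gave 9.50, 10.40, 6.69 and 7.40, with the same order of arrays. Ibsp, bone sialoprotein, was steady at 11.36 to 11.75, so not every matrix gene followed that order. Over the list, control 3 was the lowest array for 9 of 16 genes and control 2 the highest for 8. Over all genes detected on at least 1 control array, control 3 was the lowest for 12.1% and control 2 the highest for 26.9%.

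Osteocyte, osteoclast and fibroblast genes were present too. Mepe, an osteocyte protein of mineral control, read 11.94, 11.97, 12.99 and 12.02, with control 3 alone high. Sost, the osteocyte inhibitor of Wnt signalling, read 5.63, 6.35, 5.93 and 4.45. Pdpn, a marker of young osteocytes that other cells also carry, split the arrays, with 11.59 and 11.02 on controls 1 and 2 and 8.45 and 8.68 on controls 3 and 4. A second Pdpn probe gave 6.66, 6.04, 4.15 and 3.99, again with 1 and 2 high. The osteoclast acid phosphatase Acp5 was higher on controls 3 and 4 (13.57, 13.88, 15.38 and 14.94), whereas the osteoclast protease Ctsk stayed between 12.83 and 13.13. All 15 genes of the periosteum, suture and fibroblast list were kept, which detection on cut arrays alone could bring about. Of these, 13 were detected on 4 of 4 control arrays, against 11786 of all 14542 genes kept. Whether they come from periosteum left after stripping was not tested. The matricellular gene Postn, known from periosteum, read 8.14, 8.92, 6.69 and 6.59. Of 12 cartilage genes, 6 were kept and 4 were detected on all 4 control arrays, namely Sox9, Col9a2, Comp and Col11a1. Col11a1 read 8.93, 9.82, 6.42 and 7.44. Col2a1, the main cartilage collagen, was not well above background on any control array, nor were Acan, Col10a1 and Matn1.

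Red cell genes were bright and cell cycle genes steady. All 19 erythroid genes kept were detected on every control array, 14 of them in the brightest 10%, with a median SD of 0.30. The cell cycle list had a median SD of 0.16 over 16 genes. Cdk1, the kinase that starts mitosis, read 12.31, 12.43, 12.21 and 12.38. Mki67, a proliferation marker, read 13.02, 13.11, 12.66 and 12.63, but its 3 other probes had larger SDs, of 0.45, 0.56 and 0.72, against 0.25 here. Alas2, the first enzyme of heme synthesis in red cells, stayed between 15.01 and 15.25. Within the erythroid list some genes spread more. Tfrc, the transferrin receptor, read 13.06 and 13.04 on controls 1 and 2 and 11.93 and 12.03 on controls 3 and 4.

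Of 17 neutrophil genes, 12 spanned at least 1 log2 unit over the control arrays, against 23.5% of all genes detected on 4 of 4. S100a9, a subunit of calprotectin in the cytosol of neutrophils, read 15.12, 14.96, 15.05 and 15.04. Its SD was 0.06, whereas its partner S100a8 had an SD of 0.47, with control 1 highest at 15.09. A second, dimmer S100a8 probe read 10.84, 11.13, 11.30 and 11.61, with control 1 lowest. Mpo, the peroxidase of the primary granules, read 8.06, 8.17, 10.86 and 11.14. Elane, neutrophil elastase, read 9.05, 8.98, 11.00 and 11.19, and Ngp, a granule protein, 8.14, 8.47, 10.59 and 11.17. Controls 3 and 4 were thus above controls 1 and 2 for these 3 genes with no overlap, while S100a9 stayed between 14.96 and 15.12. Controls 3 and 4 were the 2 highest arrays for 14 of 17 neutrophil genes, against 34.1% of all genes detected on at least 1 control array. The same pair was highest for 11 of 16 monocyte and macrophage genes and for 7 of 10 megakaryocyte and platelet genes. Tpsab1, a mast cell tryptase, read 6.90, 7.21, 10.04 and 9.12. Itga2b, the platelet integrin chain, read 6.37, 7.65, 9.20 and 9.25. These are also the 2 arrays with the higher raw signal, and the part of that in the pattern was not tested.

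Lymphocyte genes differed from each other. Control 3 was the highest array for 11 of 12 T and NK cell genes, against 41.7% of all genes. Cd3d, a chain of the T cell receptor complex, read 7.46, 7.92, 9.70 and 8.53. Prf1, the pore-forming protein of cytotoxic cells, read 4.04, 4.13, 7.07 and 4.98 and was detected on 3 of 4 arrays. B cell genes had no common order, with control 3 the highest array for 7 of 15 and the lowest for 5. Igll1, part of the pre-B cell receptor, read 8.42, 8.45, 6.34 and 7.06, and Dntt, the enzyme that adds bases at receptor gene joints, read 5.33, 6.18, 4.06 and 3.92, whereas Ms4a1 (CD20), found on later B cells, read 7.64, 7.48, 8.80 and 7.77. Fat cell genes were lowest on control 1 for 9 of 11 genes, against 40.5% of all genes. Adipoq, the fat cell hormone adiponectin, read 6.56 there and 8.92, 8.71 and 9.10 on the others.

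Vessel genes were of middling brightness. Of 18 endothelial genes, 17 were detected on all 4 control arrays, with a median SD of 0.39, and none had a range of 2 log2 units or more among those. Kdr, a receptor for vascular growth factor, read 10.90, 10.83, 11.49 and 11.59. Vwf, the clotting factor of endothelium and platelets, read 10.12, 10.43, 10.89 and 11.00, whereas its second probe read 9.39, 9.57, 9.10 and 9.12, with controls 3 and 4 lowest. Controls 3 and 4 were the 2 highest arrays for 13 of the 18. The 10 mural and smooth muscle genes kept had a median SD of 0.31. Among them, Tagln, an actin-binding protein of smooth muscle, stayed between 5.65 and 6.21.

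Fast skeletal muscle genes were mostly dim. Of 22 fast muscle genes, 19 were on the array, 13 were kept, 7 were detected on all 4 control arrays and 0 stood in the brightest 10%. Control 4 was the highest array for 10 of the 13, against 15.2% of all genes detected on at least 1 control array. Ckm, muscle creatine kinase, read 2.41, 1.51, 3.39 and 6.58 and was detected on 2 control arrays. Atp2a1, the calcium pump of fast fibres, read 4.12, 4.91, 5.45 and 6.96. Acta1, skeletal actin, was detected on control 4 alone, at 3.80 against 0.58 to 0.67 on the others. Eno3, the muscle enolase, was the brightest of the 13, at 7.73, 8.97, 8.04 and 8.07. Of 8 slow muscle genes 2 were kept, both detected on all 4 arrays. Tnnt1, a slow troponin, read 7.65, 7.49, 8.85 and 8.65, and Tnnc1, the troponin C of slow and heart muscle, 7.43, 8.03, 8.33 and 8.55. Myh2 and Myh4, myosins of fast fibres, were not well above background on any of the 12 arrays.

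The plot of spread by gene list sets these tissues side by side. Of the lists plotted, median SDs were lowest for housekeeping (0.15) and cell cycle genes. They were 1.22 for neuron, 0.86 for inflammatory, 0.84 for fat cell (not plotted), 0.83 for oligodendrocyte and 0.81 for astrocyte genes. The neuron and astrocyte medians each rest on the 4 members detected on all 4 arrays. Dim genes spread more than bright ones, with a median SD of 0.40 among the dimmest 25% of genes on 4 of 4 and 0.20 among the brightest 25%. For scale, replicate spots of one probe on one array had a median SD of 0.0755 to 0.0883 on the control arrays.

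**Figure D2:**
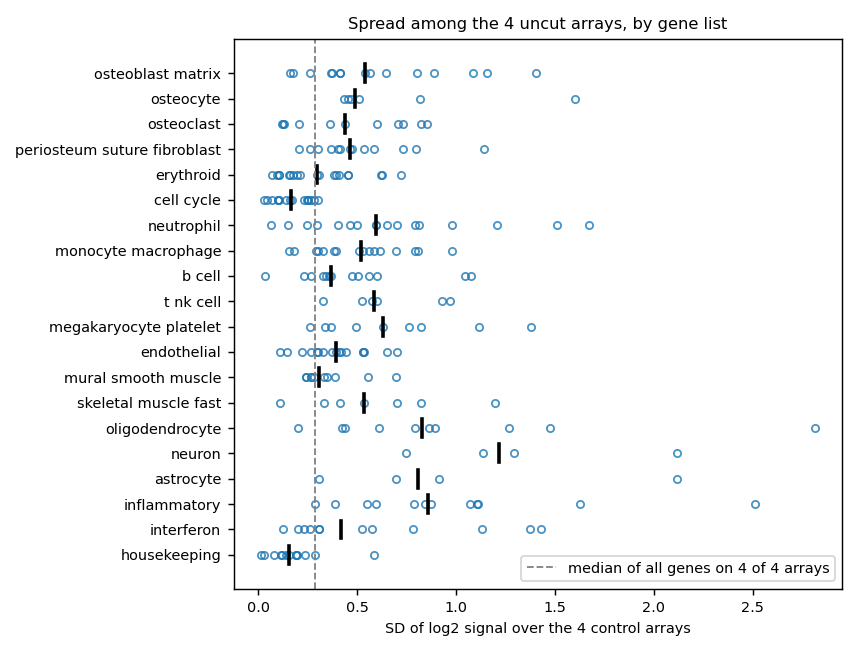
SD of log2 signal over the 4 uncut arrays for each gene detected on all 4 (circles) in 20 gene lists, with the list median (black bar) and the median of all genes (dashed line, 0.29). The cell cycle and housekeeping medians, 0.16 and 0.15, lie below the dashed line, whereas Mbp, at 2.81, is the farthest oligodendrocyte gene.

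In all, 446 genes (3.78% of those detected on 4 of 4 arrays) spanned 2 log2 units, 4-fold, or more among the control arrays, and 285 did so without control 1. A further 4245 genes (36.0%) spanned less than 0.5. Arrays 1 and 4 lay above the widest gap for 77 of the 446 (17.3%), but for 1.97% of all 11786 genes. Of the 446 genes, 69 had a second probe detected on 4 of 4 arrays, and for 35 of these that probe spanned at least 1 log2 unit with the same order of arrays. Among housekeeping genes Ppia stayed between 15.33 and 15.37, but Actb read 13.74, 13.56, 14.54 and 14.76. The steadiest genes were Uqcr10, a subunit of respiratory complex III, at 14.20 to 14.22, Dhrs7, Nop56, Nup62 and Slc4a1ap.

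Many nervous system genes read highest on controls 1 and 4. Mbp, myelin basic protein, read 13.29 and 12.37 there and 7.87 and 8.14 on controls 2 and 3, an SD of 2.81. Olig1, a transcription factor of oligodendrocytes, read 7.20, 1.62, 1.26 and 5.71 and was detected on controls 1 and 4 alone. Map2, a protein of neuronal dendrites, read 8.05, 5.53, 1.16 and 7.01, and S100b, known from astrocytes, 11.46, 6.89, 7.42 and 9.72. For each of these 4 genes both values on controls 1 and 4 lay above both on controls 2 and 3. Snap25, a protein of synaptic vesicle release, did not follow, since 8.78, 7.87 and 7.59 on controls 1, 2 and 4 stood against 1.60 on control 3. Arrays 1 and 4 were the 2 highest for 5 of 11 oligodendrocyte, 6 of 11 neuron and 3 of 6 astrocyte genes, against 989 of 13896 genes detected on at least 1 control array. The summed linear signal of the 11 oligodendrocyte genes was 12582, 1751, 1708 and 7645 on control 1 to control 4, against 1424 to 3014 on the bur and 1651 to 3249.8 on the laser arrays. One Mbp probe carried most of that difference, since without it the sums of the other 10 genes were 2573, 1517, 1427 and 2358, inside the 1349.8 to 3052 spanned by the cut arrays. Mog, Opalin, Ermn and Olig2 were well above background on 2 control arrays at most and were not kept. Gfap, the astrocyte filament, read 2.98, 2.69, 3.67 and 2.81 by a probe detected on 2 control arrays. Its values on controls 1 and 2 lay below the lowest signals called well above background there, 3.50 and 3.725. The other Gfap probe was not detected on any control array.

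The 2 probes of Mbp are shown because only one of them varied. The first 30 of the 60 bases of each, 5′ to 3′ with nothing in capitals, lie on the plus strand of chromosome 18 in the rn4 build as the scanner files give it, the variable probe at 79057264 to 79057323 and the flat probe at 79026442 to 79026501.
Variable Mbp probe: ggctggacagaagcacctactgttcttgga
Flat Mbp probe: tgggtttcatgatgtttcgaaagcaaatat
The flat probe read 6.28, 6.25, 6.94 and 6.10. Other genes of this group had probes that moved together. The second probe of S100b gave 10.26, 5.54, 5.85 and 8.32, and the second probe of Calb2 gave 8.06, 2.34, 0.70 and 8.23.

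Several genes known from the olfactory bulb, the forebrain region that receives smell, were among the most variable. This list of 18 genes and the pineal list below were put together after the values had been seen, so their counts are descriptions. Calb2, a calcium-binding protein of interneurons, read 9.13, 4.18, 3.48 and 9.16. Cdhr1, a cadherin of mitral cells and photoreceptors, read 11.48, 7.80, 6.48 and 11.38. Omp, the marker protein of olfactory sensory neurons, read 7.46, 4.98, 3.36 and 5.08, so that control 1 alone stood out. A second Omp probe was not detected on any control array. Of the 17 genes kept, 13 were highest on control 1 and 11 had controls 1 and 4 as the 2 highest arrays. Th, the first enzyme of dopamine synthesis, stayed between 5.58 and 6.27.

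A separate set of genes known from the pineal gland and retina was high on control 2 and next on control 4. The pineal gland lies under the skull roof and turns serotonin into melatonin. Tph1, which makes the precursor of serotonin, read 5.04, 12.76, 5.36 and 9.19, and had the largest SD of all genes detected on 4 of 4 arrays, at 3.64. Asmt, the last enzyme of melatonin synthesis, read 2.64, 10.16, 2.45 and 6.46. Otx2, a transcription factor of pineal and retina, read 0.72, 9.79, 0.93 and 6.24, and a second probe 0.83, 8.65, 1.54 and 5.06. Another Otx2 probe, detected on 3 control arrays, read 3.70, 4.13, 3.30 and 2.49, with control 4 lowest. A further Otx2 probe was not detected on any control array. Gngt1 and Pde6g, parts of the light-sensing cascade, read 0.67, 9.99, 1.95 and 5.90, and 0.68, 9.42, 1.14 and 6.33. Control 2 was the highest control array for all 16 genes of the list that were kept, and control 4 was second for 14. Ttr, a thyroid hormone carrier of choroid plexus, followed the same order at 1.66, 11.12, 1.41 and 7.39. The probes of Asmt, Gngt1, Pde6g and Ttr and the first Otx2 probe were each detected on 2 control arrays. Their values on controls 1 and 3 lay below the lowest signals called well above background there, 3.50 and 2.84. Of the 16 genes of the list, 5 were detected on all 4 control arrays and 11 on 1 to 3 of them. Aanat and Crx were not well above background on any control array. The bur and laser arrays held the same kind of spread, with bur 2 the highest bur array for 15 of the 16 and laser 3 the highest laser array for 16. The summed linear signal of the 16 genes was 252, 15957, 443 and 1726 on control 1 to control 4.

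Both Tph1 probes are shown because they agree on the order of controls 1 to 4. The files place them on the minus strand of chromosome 1 in rn4, the brighter at 97186071 to 97186087, a span shorter than the probe, and the dimmer at 97188245 to 97188304.
Brighter Tph1 probe: tgtaattctttcccagagagagccattcct
Dimmer Tph1 probe: ctgcttagggaaatataattcacatgccac
The dimmer probe read 3.44, 10.91, 4.44 and 7.62, with control 2 highest and control 4 next.

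**Figure D3:**
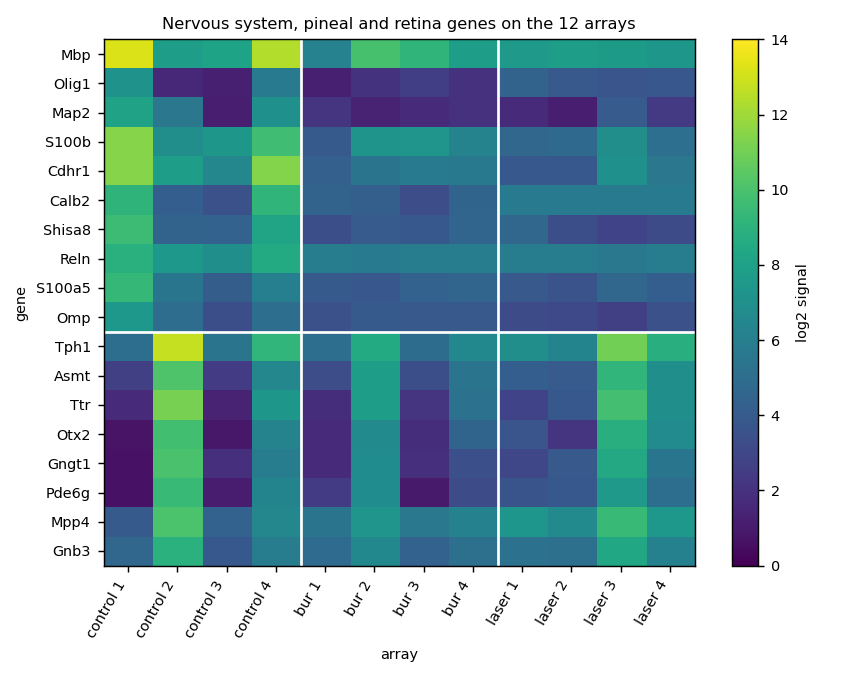
Log2 signal (colour) of 18 genes in rows on the 12 arrays in columns, with white lines between control, bur and laser and between nervous system genes above and pineal and retina genes below. Upper rows are brightest on controls 1 and 4, and lower rows on control 2, where Tph1 read 12.76, and laser 3.

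Inflammatory and injury genes gave another order, from control 1 down to control 4. Arg1, an arginine-degrading enzyme of activated macrophages, read 12.73, 10.75, 6.78 and 6.01. The neutrophil chemokine Cxcl2 read 10.92, 9.06, 6.18 and 5.55, and Cxcl3 read 10.23, 7.88, 4.49 and 3.47. The monocyte chemokine Ccl2 read 10.38, 9.13, 8.60 and 7.83. Control 1 was the highest array for 10 of the 13 inflammatory genes detected on at least 1 control array and control 4 the lowest for 12, against 16.2% and 26.9% of all genes. Tnf did not follow, at 7.39, 7.19, 7.74 and 7.78. Among interferon-induced genes, Isg15 read 10.50, 8.94, 7.52 and 7.50, whereas Rsad2 stayed between 14.26 and 14.54. The glucose transporter Slc2a1, known to rise in low oxygen, read 9.92 and 9.86 on controls 1 and 2 and 7.65 and 7.76 on controls 3 and 4.

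**Figure D4:**
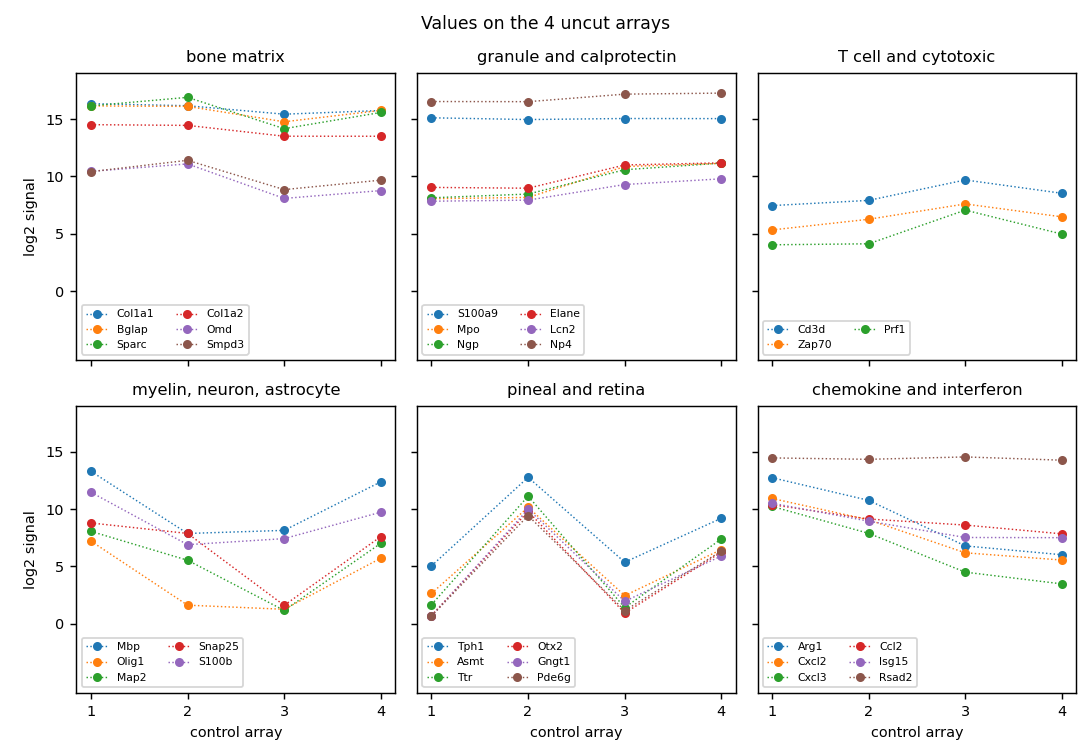
Log2 signal of selected genes on control arrays 1 to 4, in 6 panels by known role. Dotted lines only link the points of a gene. Bone matrix genes such as Sparc are lowest on control 3, and granule genes such as Mpo are highest on 3 and 4 while S100a9 is flat. Mbp (its variable probe), Olig1, Map2 and S100b are highest on 1 and 4, whereas Snap25 is low on 3 alone. Pineal genes peak on 2, and Cxcl2 falls from 10.92 on control 1 to 5.55 on control 4.

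The uncut arrays were set against cut bone to show which of these tissues differed between groups. By limma over the 12 arrays, 25.1% of genes differed from bur-drilled bone at a Benjamini-Hochberg adjusted p under 0.05, 10.2% higher and 14.9% lower in uncut bone. Of the bur calls 40.7% were higher in uncut bone, and 55.4% with scaling to the 75th percentile. Against laser-ablated bone 34.6% differed, 17.3% in each direction. Erythroid and cell cycle genes were higher in uncut bone: 17 of 19 and 15 of 16 against bur, and 15 and 13 against laser. The median difference was 1.75 and 1.44 log2 units for the erythroid list and 1.12 and 0.85 for the cell cycle list, against -0.08 and 0.01 over all genes. Epor, the erythropoietin receptor, read 11.75, 11.92, 11.78 and 11.55, which was 1.34 log2 units above bur (limma adjusted p = 0.000702) and 1.46 above laser (limma adjusted p = 0.000246). Car2, an enzyme found in osteoclasts and red cells, was 1.45 above bur (limma adjusted p = 0.000599). It was the only 1 of 14 osteoclast genes higher than in bur-drilled bone, where 2 were lower. Against laser-ablated bone 2 osteoclast genes were higher and 3 lower.

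Several genes of fibroblasts, vessel walls and inflammation were lower in uncut bone, where 14.9% of all genes were lower than in bur-drilled and 17.3% than in laser-ablated bone. Of 15 periosteum and fibroblast genes, 5 were lower than in bur-drilled and 6 than in laser-ablated bone, and of 10 mural genes 5 and 6, and none was higher in either list. The median differences were -0.69 and -0.35 for the first list and -0.57 and -0.72 for the second. Col3a1, the collagen of loose connective tissue, read 11.21, 11.38, 11.02 and 10.92 and differed by -1.93 ± 0.40 (SE, n = 4) log2 units from bur (limma adjusted p = 0.00523). Inflammatory genes were lower in uncut bone for 13 of 15 against bur and 5 of 15 against laser, with median differences of -3.18 and -1.16. Of 16 osteoblast and matrix genes, 3 were lower than in bur-drilled and 8 than in laser-ablated bone, so the share was near that of all genes for bur. Tagln differed by -1.17 from bur and -1.42 from laser (limma adjusted p = 0.000465 and 6.57e-05).

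Nervous system genes were set against the 10.2% and 17.3% of all genes that were higher in uncut bone than in bur-drilled and laser-ablated bone. Of 11 oligodendrocyte genes, 2 were higher than in bur-drilled and 2 than in laser-ablated bone, where 3 were lower. Of 11 neuron genes, 1 and 2 were higher, and of 6 astrocyte genes 3 and 3. None of the 16 pineal and retina genes passed against either group. Reln, a secreted protein of early-born neurons and lymphatic vessels, was chosen for mention after its values were seen. It read 8.86, 7.46, 6.95 and 8.55 on the uncut arrays and 5.63 to 5.93 on the 8 cut arrays, with no overlap, and was 2.08 ± 0.34 (SE) log2 units above bur (limma adjusted p = 0.00166). Because of that choice, these Reln values are only a description. All uncut arrays lay above all cut arrays for 2 of 17 olfactory bulb genes, and for 0 of the oligodendrocyte, neuron or astrocyte genes. The share of all genes without such overlap was not counted, so these counts cannot be set against a background. Of the 17 olfactory bulb genes, 4 were higher and 2 lower than in bur-drilled bone, and 7 and 2 against laser. The olfactory bulb and pineal lists were put together after the values had been seen, so their counts here are only descriptions. Controls and bur samples shared one slide and the laser samples had another, so laser and slide cannot be told apart.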

How the data were processed

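Per the labels' protocols, Cy3-labelled cRNA made from total RNA was read on one-colour arrays. The authors deposited scanner files with a background-corrected intensity per spot (the submitters' processing notes name Agilent Feature Extraction 11.0.1.1), and a table of log2 values whose making is not given in the sources used here. From the deposited intensity, spots that are controls or flagged as outliers were dropped, log2 values were quantile normalized over 12 arrays, spots of a probe were averaged, and probes well above background on at least 4 arrays were kept, which left 14542 genes, each by its brightest probe. Groups were compared with limma 3.58.1 in R 4.3.3. On simulated data for control against bur over 14542 genes, 53 of 100 genes changed by 1 log2 unit and 84 of 100 changed by 2 were called. Probes were named by accession through RefSeq tables or by the files. The members and lists were chosen with earlier results of these data known. Genes named are the 5 markers, the 20 brightest, the 20 most and 5 least variable, 2 brightest and 2 most variable of each list, and 2 of each list with the smallest p in each comparison, of which a subset is printed (some are not reported here), with others chosen after their values were seen. The number of arrays limits the precision.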

Additional observations from a re-analysis of the deposited data

Results flagged for a closer look

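For 83 genes named here, the 4 control values were checked for one array standing apart by Dixon's criterion, which chance meets in about 1 in 20 groups, and 5 genes met it. Rpl41 was not tested, since quantile normalization gave it the same top value on several arrays. Acta1 read 3.80 on control 4 against 0.67 on the next array, and Tnni2, a troponin of fast muscle, 6.83 on control 4 against 5.52. Mepe read 12.99 on control 3 against 12.02. Adipoq was low on control 1 at 6.56 against 8.71, and Snap25 was low on control 3 at 1.60 against 7.59.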

How the results depend on the processing

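The number of genes detected on all 4 control arrays stayed within 1.5 times of 11786 under each alternative, at 10291 when every kept probe had to agree and 11813 to 12166 without one control array. The 446 genes spanning 4-fold became 413 with 75th percentile scaling, 422 with the 4 control arrays normalized alone, 148 with normexp background correction, 225 in the authors' values, 1150 when detection on 2 of 4 arrays sufficed, and 285 to 379 without one control array. Genes called against bur numbered 2231 without controls 1 and 4, an alternative chosen after seeing the data, against 3655, and 2649 to 3844 without one array, and against laser 3756 to 4908. With 75th percentile scaling the share of bur calls higher in uncut bone was 55.4%, against 40.7%, and the median difference of all genes moved by 0.142 log2 units. With the replicate number as a block, 3809 and 5323 genes were called against bur and laser, where 3655 and 5033 were called without it. Deviations of same-numbered control and bur arrays correlated at 0.0892, 0.219, 0.22 and 0.123, and of control and laser arrays at 0.216, -0.0222, -0.121 and 0.273. The bar of 0.1 in every pair was not met, so the arrays were not taken as paired. Among the bur arrays control 4 correlated best with bur 3, at 0.258, and among the laser arrays with laser 4, at 0.273. Probes near background have the least certain values.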
